A study of Mus musculus with 6 samples.

Results

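The miRNAs described here are the erythroid miRNAs mmu-miR-451a, mmu-miR-144-3p, mmu-miR-144-5p, mmu-miR-486a-5p, mmu-miR-486b-5p and mmu-miR-486a-3p, written below without the species prefix and measured in hippocampal neural stem cells (NSCs, dividing precursors of neurons and glia). They were taken by name as 6 rows of a table of 1522 miRNAs, of which 1147 carry a miRBase name. The cells came from male C57BL/6J mice at postnatal day 3, dissociated from hippocampus. In 1 group, GDE (gestational dexamethasone exposure, called IUGR in the library titles), the pregnant dams had dexamethasone, a glucocorticoid drug, injected into the peritoneum daily at 1 mg/kg between E14.5 and E18.5 of gestation (days of embryonic age). In the other, Control (called Normal), the dams received the same volume of saline on the same days. Each group had 3 small RNA libraries, from independent litters per the design text, and whether a library pooled several pups is not given in the sources used here. Male sex, strain and age were common to both groups.

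Red cells keep miRNAs long after their precursors have lost the nucleus, and miR-451a, miR-144 and miR-486 are among the miRNAs that build up most as erythroblasts mature. Mir144 and Mir451a are transcribed together under the erythroid factor GATA1. miR-451a is processed in an unusual way, since its short hairpin is cut by Ago2 instead of Dicer, whereas miR-144 takes the usual Dicer route. Mir486 lies within Ank1, which encodes a protein of the red cell membrane skeleton, and miR-486 is also made in striated muscle. In brain preparations these miRNAs are often read as a sign of blood in the tissue.

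The sequences are given first because the members differ in how they are made and in what they could pair with. Of the 6 members, 3 had a mature sequence in RefSeq (GRCm38.p6, the assembly also called mm10), and miR-486a-5p, miR-486b-5p and miR-486a-3p are given by name only. In the mature sequences the capitals mark the seed, bases 2 to 8 from the 5′ end, which directs target pairing.
miR-451a: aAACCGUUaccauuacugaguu
miR-144-3p: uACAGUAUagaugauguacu
miR-144-5p: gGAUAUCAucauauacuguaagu
The 3 seeds differ from each other. No other of the 1679 mature mouse miRNA names in that RefSeq table has the seed of any of them. Over bases 2 to 7 alone, 1 other miRNA matches miR-144-3p, namely miR-101a-3p, named here after its values were seen:
miR-101a-3p: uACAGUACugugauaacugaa
It was at 7.83 ± 1.76 (GDE) and 6.41 ± 2.02 RPM (Control; SD, n = 3 each), so more abundant than miR-144-3p in all 6 libraries. RPM stands for tags (sequenced small RNA reads) scaled to 1000000 tags of the library, and since mature miRNAs are of nearly one length, no length correction was applied.

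The precursors of the cluster show where each mature miRNA sits. Here the capitals mark the mature parts, and both hairpins are on the plus strand of chromosome 11.
Mir144: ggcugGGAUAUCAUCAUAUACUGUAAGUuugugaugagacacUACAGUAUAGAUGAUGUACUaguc
Mir451a: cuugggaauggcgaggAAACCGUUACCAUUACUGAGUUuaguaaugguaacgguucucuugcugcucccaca
Mir144 (chr11:78073005-78073070) gives miR-144-5p from one arm and miR-144-3p from the other, and in the structure predicted by RNAfold 18 bases of each pair with the other. Mir451a (chr11:78073170-78073241) has 1 mature product. Of its 22 bases, 17 were predicted to be paired with the opposite arm and 4 lay in the terminal loop of 4 bases. The precursors are 99 bases apart, and in GENCODE M21 the only other gene in the interval from Mir144 to Mir451a is Mir451b. It is annotated on the minus strand over exactly the interval of Mir451a, and the protein-coding gene Eral1 ends 134 bases further on, also on the minus strand.

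**Figure D1:**
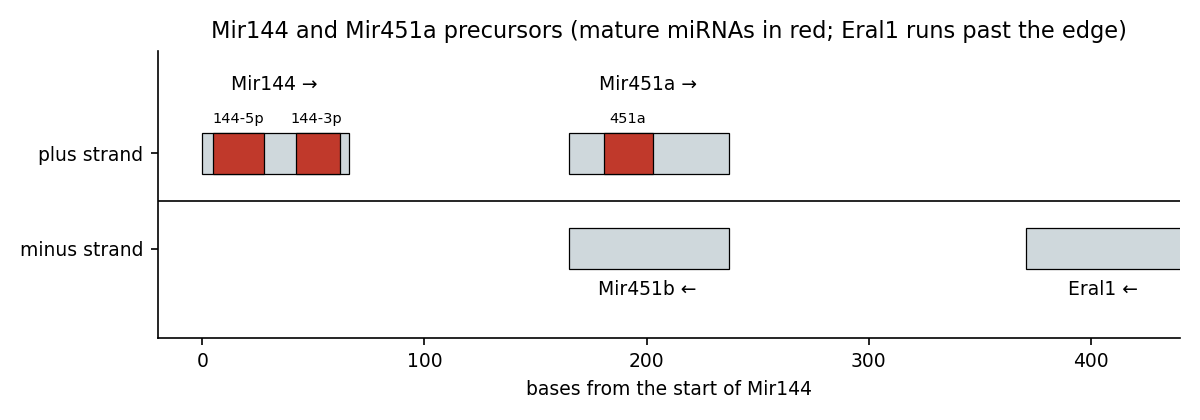
Map of the Mir144 and Mir451a precursors, with bases from the start of Mir144 on the x axis and the plus and minus strands above and below the line. Grey boxes are genes, red boxes are the mature miRNAs, and 99 bases separate Mir144 from Mir451a, with Mir451b opposite Mir451a.

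The miR-486 members come from Mir486 (chr8:23142555-23142682, plus strand) and Mir3107, also called mir-486b (chr8:23142573-23142662, minus strand). All 90 bases of Mir3107 lie inside Mir486 on the opposite strand. Both lie within Ank1 (plus strand, chr8:22974844-23150497), where 15 of 17 transcripts span Mir486 and 0 exons overlap either precursor, so the site is intronic. miR-486a-5p and miR-486b-5p carried the same values in every library and are treated below as 1 measurement. How tags that fit both precursors were shared between them is not given in the sources used here, so the split between miR-486a and miR-486b is uncertain.

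Depth was 11751000 to 12385000 tags per library, with 2927136 to 3343808 of them in the table, and whole tags could be recovered from the values. The list of 8 miRNAs headed neural stem and progenitor summed to 18820 to 19702 RPM (GDE) and 18937 to 20436 RPM (Control). It was led by miR-9-5p and miR-9-3p, at 8408 and 7898 RPM on average, and also holds miR-128-3p (626.7 RPM) and miR-124-3p (233.8 RPM). No other cell type was sequenced, so these levels test neither the cell label nor whether the list members are specific to stem cells. The erythroid rows with values of their own, 5 in number, summed to 39.8 to 104.6 RPM, or 0.0153 to 0.0402% of the RPM in the table.

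miR-451a, among the most abundant miRNAs of mature red cells, was the highest of the set in every library and was higher in all GDE libraries than in any Control library, while miR-486a-5p lay at nearly one level throughout and miR-144 was close to the limit of detection. Among the 6 rows, 4 (3 with values of their own) had at least 1 RPM in 3 or more libraries and were tested with 649 miRNAs in all. In limma, 0 of them passed an adjusted p of 0.05, against 2 of 649 miRNAs, or 0.308%, and edgeR, DESeq2 and limma-voom on the whole tags also called 0 of them. At an unadjusted p under 0.05 limma picked 1 of the 3, miR-451a, beside 8.63% of all tested miRNAs, or 4.01% counting those higher in GDE. All 3 had a positive log2 fold of GDE over Control with all libraries in, that of miR-486a-5p turning negative when either GDE replicate 2 or Control replicate 3 was left out. Their median was 0.53, beside 38.8% positive folds and a median of -0.07 over all tested miRNAs; the miR-144 arms, below the filter, are not in this count.

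miR-451a was at 63.4, 74.1 and 58.4 RPM in GDE replicates 1, 2 and 3, from 759, 876 and 708 tags. In Control it was at 29.9, 52.8 and 20.8 RPM, from 360, 654 and 244 tags. The groups did not overlap, but Control replicate 2 came within a few RPM of the lowest GDE library, while Control replicates 1 and 3 lay well below. The mean was 65.3 ± 8.06 (GDE) and 34.5 ± 16.5 RPM (Control; SD, n = 3 each). On the log2(RPM + 1) scale the difference was 1.00 (SE 0.34), with a 95% interval of 0.22 to 1.78. That corresponds to a 1.99-fold higher level, with an interval of 1.16 to 3.43-fold. It did not pass over all tested miRNAs (limma, unadjusted p = 0.0187, adjusted p = 0.551, range over the alternatives 0.184 to 0.822). The exact two-sided permutation p was 0.1, the smallest that 3 against 3 libraries allow. Non-overlap with GDE on top was found for 4.62% of the tested miRNAs and with GDE below for 10.0%. In bulk samples such as these, more cells of a type and more RNA per cell cannot be told apart. In rank among the 1147 named rows miR-451a stood at 181 to 195 in GDE and at 207 to 261 in Control.

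The spread of miR-451a lay mainly in Control. Its coefficient of variation was 12.3% in GDE and 47.8% in Control, where counting alone would give 3.58% and 4.88%. The within-group SD on the log2 scale was 0.48, larger than in 79.3% of the 92 other tested miRNAs whose mean lay within 2-fold of its own. The Control libraries spanned 2.54-fold, against 1.27-fold for the GDE libraries.

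miR-144-3p, which shares its transcript with miR-451a, was detected in all libraries at only a few tags. It was at 0.668, 1.44 and 1.15 RPM in GDE (8, 17 and 14 tags) and at 0.665, 0.969 and 0.425 RPM in Control (8, 12 and 5 tags). The groups overlapped, since GDE replicate 1 lay level with Control replicate 1 and below Control replicate 2. Summed over the libraries there were 39 tags in GDE and 25 in Control, a depth-scaled ratio of 1.57, for which counting error alone gave 0.927 to 2.71 as the exact binomial 95% interval. Such intervals cover counting error only, as PCR copies are not independent molecules. miR-144-3p did not meet the filter, so it has no value from limma, and the exact two-sided permutation test of log2(RPM + 1) gave p = 0.2 for a difference of 0.30. miR-144-5p, from the other arm, had 2 tags in GDE (1 each in replicates 2 and 3) and 1 tag in Control (in replicate 2). Both group sums were at or below 3 tags, the upper limit that a count of 0 allows, which is 0.242 to 0.255 RPM in 1 library, so no fold is given and a difference was not detectable at this depth.

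**Figure D2:**
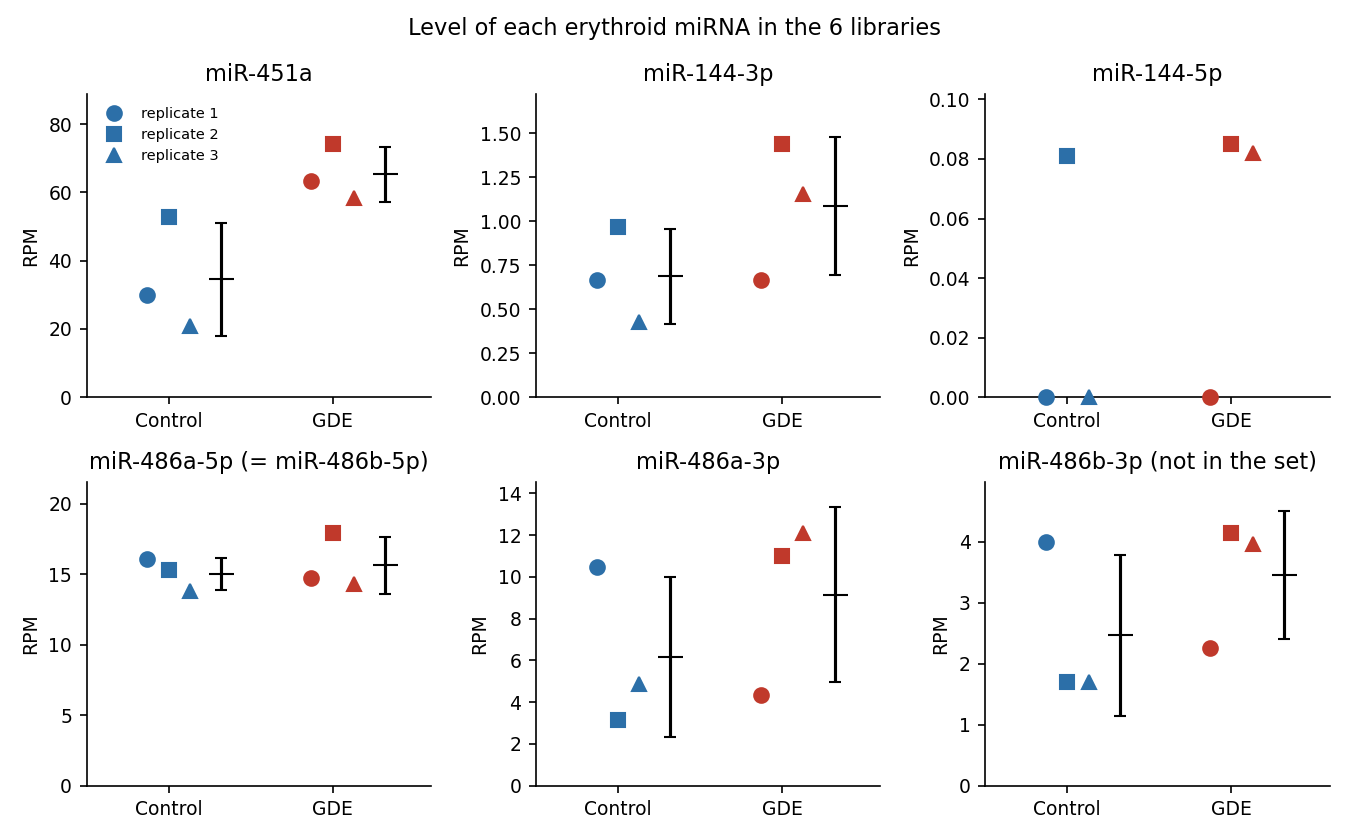
RPM in Control (blue) and GDE (red) libraries for each erythroid miRNA, with the replicate number as the marker and, except for miR-144-5p, mean ± SD in black; miR-486b-3p, the remaining arm of the pair, is shown for comparison. For miR-451a the 3 GDE libraries (58.4 to 74.1 RPM) lie above the 3 Control libraries (20.8 to 52.8 RPM), and for the others the groups overlap.

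miR-486a-5p, the guide strand of Mir486, was at 14.7, 17.9 and 14.3 RPM in the GDE libraries and at 16.0, 15.3 and 13.8 RPM in the Control ones. No library stood apart, and the groups overlapped over nearly their whole range. The mean was 15.6 ± 2.01 (GDE) and 15.0 ± 1.14 RPM (Control; SD, n = 3 each), a log2 difference of 0.05 with an SE of 0.20. It did not pass (adjusted p = 0.984 in limma and p = 0.8 by exact permutation). The 95% interval ran from -0.41 to 0.51, so changes between 0.752-fold and 1.43-fold are within it. Leaving out GDE replicate 2 turned the sign, to -0.05, as did leaving out Control replicate 3, to -0.01. The coefficient of variation was 12.9% in GDE and 7.61% in Control, where counting alone would give 7.31% and 7.43%. Only 3.81% of the 105 tested miRNAs within 2-fold of its mean had a smaller within-group SD than its 0.14 on the log2 scale.

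miR-486a-3p, the opposite strand of the same hairpin, varied far more than the guide. It was at 4.34, 11.0 and 12.1 RPM in the GDE libraries and at 10.5, 3.15 and 4.85 RPM in the Control ones. GDE replicate 1 lay with the low Control libraries, and Control replicate 1 lay with the high GDE libraries. The log2 difference of 0.53 (SE 0.46) did not pass (adjusted p = 0.723 in limma and p = 0.4 by exact permutation), and its 95% interval ran from -0.53 to 1.59. It ranged from 0.20 without Control replicate 2 to 0.94 without GDE replicate 1. The matching arm of the antisense hairpin, miR-486b-3p, named after its values were seen, was at 2.25, 4.15 and 3.96 RPM in the GDE libraries and at 3.99, 1.70 and 1.70 RPM in the Control ones, so the same 3 libraries were high for both. miR-486a-3p exceeded miR-486b-3p in every library, by 1.86 to 3.06-fold. As stated above, the split of tags between miR-486a and miR-486b is uncertain, so these rows may not be independent. The ratio of miR-486a-5p over miR-486a-3p, a comparison chosen after the values were seen, ran from 1.18 in GDE replicate 3 to 4.85 in Control replicate 2, and the groups overlapped (exact permutation p = 0.5, two-sided).

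Ratios within a library were used to compare the members with each other. Plain ratios do not depend on how the library was scaled. The tested log2 ratios had 1 RPM added to each value, so they depend on it in part, most for miRNAs of low level. miR-451a was 4.31, 4.13 and 4.09 times as abundant as miR-486a-5p in GDE replicates 1, 2 and 3, and 1.87, 3.46 and 1.51 times in Control. The GDE libraries lay close together and above all Control libraries, of which replicate 2 was again the nearest. The log2 ratio, with 1 RPM added to each value, was 2.00 ± 0.04 in GDE and 1.05 ± 0.61 in Control, a difference of 0.95 (exact two-sided permutation p = 0.1, the smallest possible; adjusted over the 3 planned ratios, exact permutation p = 0.15). In a limma fit of 647 miRNAs as ratios over miR-486a-5p, added after the values were seen, this difference had an SE of 0.30, a 95% interval of 0.25 to 1.64 and an unadjusted p of 0.0134. It did not pass over all ratios (limma, adjusted p = 0.488), where 2 ratios were called and 8.66% had an unadjusted p under 0.05.

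Within the cluster, miR-451a was 94.9, 51.5 and 50.6 times as abundant as miR-144-3p in GDE and 45.0, 54.5 and 48.9 times in Control. All but 1 of these ratios lay between 45.0 and 54.5, and the exception was GDE replicate 1, which held 8 tags of miR-144-3p, as did Control replicate 1. The log2 ratio with 1 RPM added differed by 0.69 with no overlap (exact permutation p = 0.1; adjusted, exact permutation p = 0.15), but without the addition the groups overlapped, and with 0.1 RPM added the difference was 0.42. For miR-144-5p over miR-144-3p the difference was -0.26 (exact permutation p = 0.2 raw and adjusted), which rests on 3 tags of miR-144-5p.

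**Figure D3:**
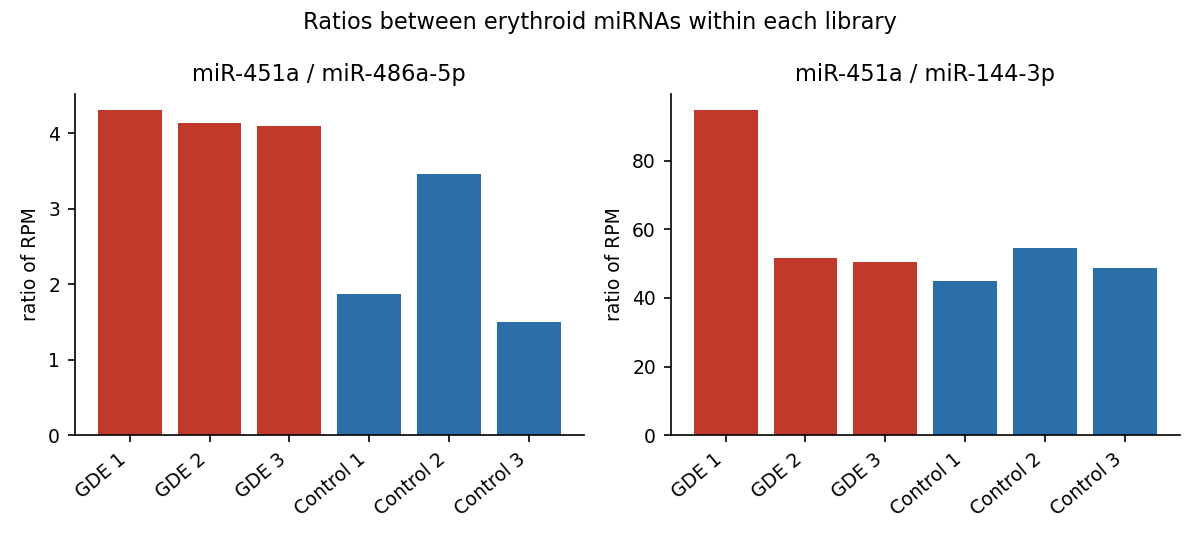
Ratio of RPM of miR-451a over miR-486a-5p (left) and over miR-144-3p (right) in each library, GDE in red and Control in blue. The left ratio is 4.09 to 4.31 in GDE and 1.51 to 3.46 in Control, while on the right GDE replicate 1 stands at 94.9 and the other libraries at 45.0 to 54.5.

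Some miRNAs reported in leukocytes or microglia lay high in GDE replicate 2 and low in Control replicates 1 and 3, as miR-451a did. Their values are given beside it, and which of these cells they came from was not tested. The list of leukocyte and microglia miRNAs had 8 of its 9 members tested, 6 with a positive and 2 with a negative fold and a median of 0.73, and 0 passed in limma at an adjusted p of 0.05 (3 at an unadjusted p under 0.05, all higher in GDE, beside 4.01% of all tested miRNAs). edgeR and limma-voom called 0 and DESeq2 called 1 of them, miR-150-5p (DESeq2, adjusted p = 0.0366), where DESeq2 called 7 of 649, or 1.08%. miR-223-3p passed in limma without Control replicate 2, its highest Control library (adjusted p = 0.0329), where 3 of 649 miRNAs were called. With all libraries its adjusted p in limma was 0.551, with a range over the alternatives of 0.0329 to 0.816. The list held no member at 0 in all libraries. miR-142a-3p, miR-150-5p and miR-223-3p did not overlap between the groups and were higher in GDE, as were 4.62% of all tested miRNAs. For miR-142a-3p the gap was narrow, as GDE replicate 1 (10.35 RPM) and Control replicate 2 (10.01 RPM) each held 124 tags. The summed level of the list, led by miR-21a-5p and miR-146a-5p, which many cell types make, was 6285 to 7442 RPM in GDE and 6522 to 7289 RPM in Control. miR-150-5p, of lymphocytes, was at 233.3, 357.9 and 303.9 RPM in the GDE libraries and at 90.3, 186.8 and 103.2 RPM in the Control ones. miR-223-3p, of myeloid cells, was at 66.7, 96.0 and 72.3 RPM in the GDE libraries and at 16.1, 54.3 and 19.4 RPM in the Control ones. As for miR-451a, GDE replicate 2 was the highest library and Control replicate 2 the highest Control for both. miR-142a-3p, which marks hematopoietic lineages, was also highest in GDE replicate 2 and, among Controls, in replicate 2. The full order differed, as miR-451a was lowest in Control replicate 3, and miR-150-5p, miR-223-3p and miR-142a-3p in Control replicate 1. Among GDE libraries, replicate 1 lay above replicate 3 for miR-451a and below it for those miRNAs. Not all list members were highest in GDE replicate 2 and, among Controls, in replicate 2. The negative ones were miR-155-5p, highest in Control replicate 1 (118 RPM), and miR-21a-5p, highest in Control replicate 3 (5100 RPM). miR-342-3p was at 205.0 ± 14.85 (GDE) and 198.8 ± 21.89 RPM (Control). miR-223-5p, below the filter, had 12 tags in Control replicate 1, where miR-223-3p was lowest, and 1 to 6 in the GDE libraries. miR-342-3p and miR-223-5p were named after their values were seen. Control replicate 1 held 3 tags of miR-142a-3p and 0 of miR-142a-5p (the latter named after its values were seen) beside 360 tags of miR-451a. The ratio of miR-451a over miR-150-5p, also chosen after the values were seen, was 0.192 to 0.272 in GDE and 0.201 to 0.331 in Control, with overlapping groups (exact two-sided permutation p = 0.3). The part of blood cells in the level of miR-451a was not tested.

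**Figure D4:**
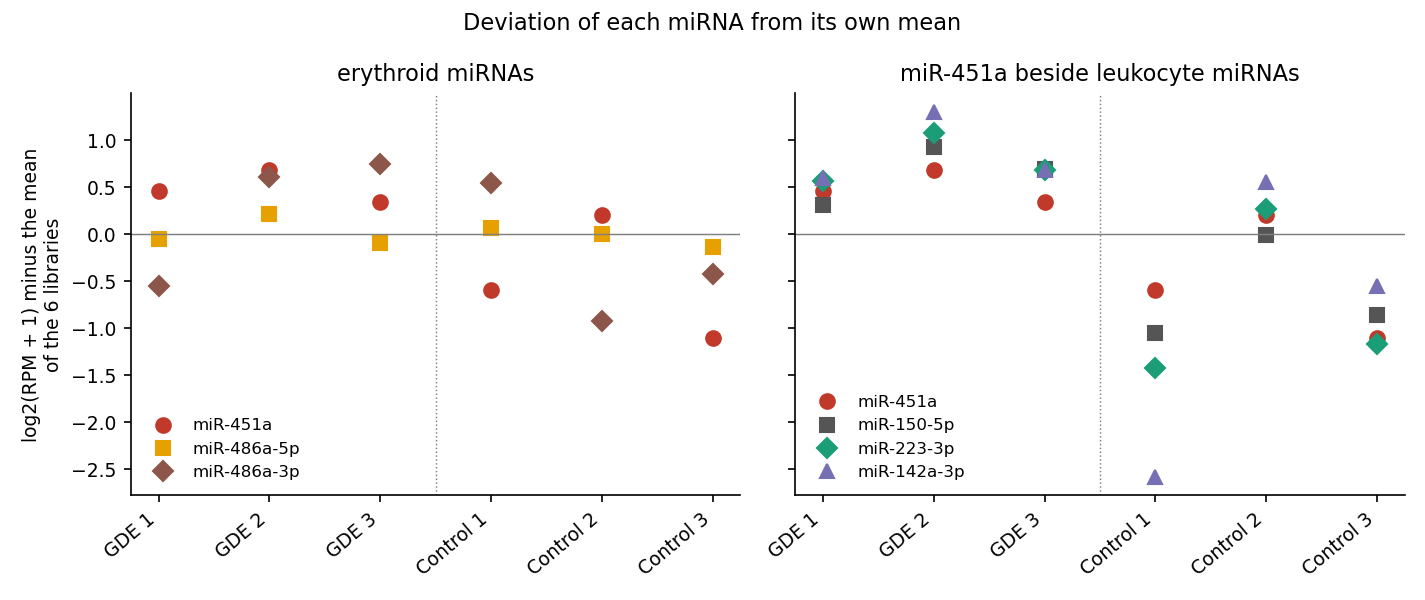
Deviation of log2(RPM + 1) from the mean of the 6 libraries for erythroid miRNAs (left) and for miR-451a beside miRNAs of the leukocyte and microglia list (right), with libraries on the x axis. On the right the 4 miRNAs are high in GDE replicate 2 and low in Control replicates 1 and 3, with miR-142a-3p lowest in Control replicate 1, while on the left miR-486a-5p stays near 0 and miR-486a-3p follows another order.

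Likeness to miR-451a was measured as the root mean square difference of the centred log2(RPM + 1) values over the 6 libraries, among 317 named miRNAs of at least 10 RPM. The 5 nearest were miR-150-5p (0.29), miR-223-3p (0.40), miR-126a-5p (0.42), miR-3057-5p (0.47) and miR-222-3p (0.48). The order of the libraries was not shared by all of them, since miR-3057-5p was highest in Control replicate 1, at 30.8 RPM, and miR-222-3p in GDE replicate 1, at 212.2 RPM. For miR-486a-5p the nearest 3 were miR-30d-3p (0.06), miR-138-5p (0.07) and miR-350-3p (0.07). The measure describes these libraries and includes the group difference itself.

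Other miRNAs reported in red cells or their maturation lay on both sides. Of the 19 of 20 such miRNAs analysed here, 16 were tested, 5 had a positive and 11 a negative fold, with a median of -0.07, the same to 2 decimals as over all tested miRNAs. None passed in limma at an adjusted p of 0.05, 0 had an unadjusted p under 0.05, and edgeR, DESeq2 and limma-voom called 0 of them. Most of them are also abundant in neural cells. miR-16-5p was at 7280 ± 256 (GDE) and 7535 ± 548 RPM (Control), and miR-22-3p at 7409 ± 337 and 7357 ± 266 RPM. miR-15b-5p was the 1 member without overlap, at 529.3 ± 99.1 (GDE) and 732.7 ± 163.3 RPM (Control), with a log2 difference of -0.46 (adjusted p = 0.561 in limma). Its separation was narrow, with GDE replicate 3 at 619.9 RPM (7518 tags) and Control replicate 3 at 628.9 RPM (7390 tags). Of 5 miRNAs reported to fall as red cells mature, all tested, 4 had a positive and 1 a negative fold, with a median of 0.24. None of these 5 passed in limma, edgeR or limma-voom, DESeq2 called miR-150-5p as above, and 2 had an unadjusted p under 0.05 in limma (8.63% of all tested miRNAs), namely miR-150-5p and miR-223-3p, which are also in the leukocyte list. miR-222-3p was at 179.0 ± 30.8 (GDE) and 152.0 ± 32.3 RPM (Control), and miR-155-5p, the negative one, named for that after its values were seen, at 90.6 ± 6.57 and 108.2 ± 13.1 RPM.

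**Figure D5:**
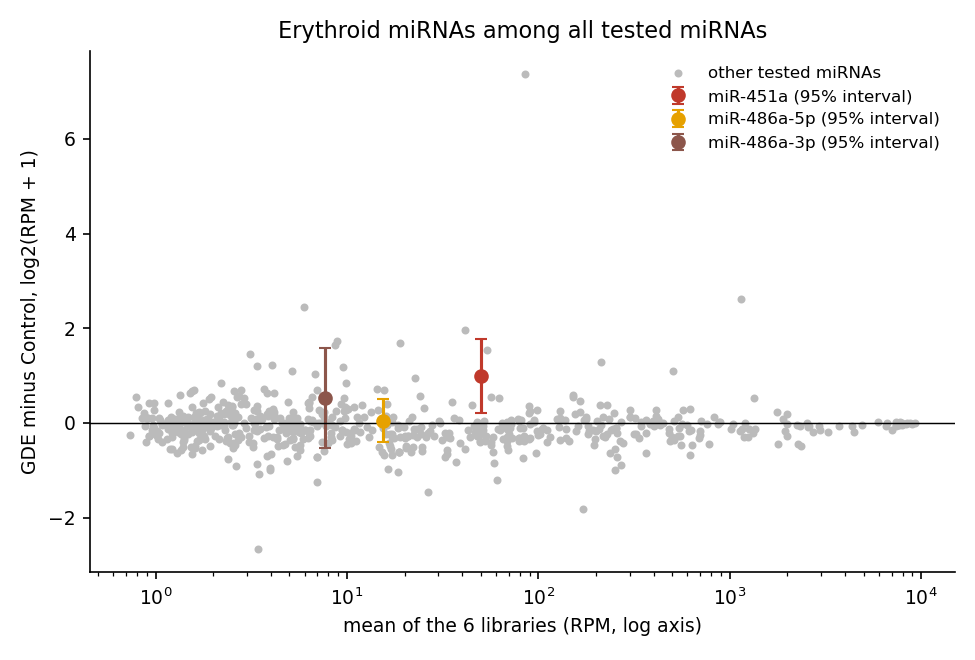
Difference of GDE and Control in log2(RPM + 1) against the mean RPM (log axis) for all 649 tested miRNAs in grey, with miR-451a, miR-486a-5p and miR-486a-3p in colour with their 95% intervals from limma. The interval of miR-451a (0.22 to 1.78) lies above 0 before adjustment for multiple tests, and those of miR-486a-5p (-0.41 to 0.51) and miR-486a-3p (-0.53 to 1.59) include 0.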

How the data were processed

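The deposited table was read as RPM from its values, since the file headers name the 6 columns expression only. Per the submitters' processing notes Bowtie2 and mm10 were used, with versions, roles and further steps not given in the sources used here. In each library 100% of the nonzero RPM values deposited by the authors were whole multiples of 1 step, within 0.1 tags, which gave whole tags and the depth. limma 3.58.1 (R 4.3.3) was fitted with a trend on log2(RPM + 1), a scale that understates changes of low miRNAs, over miRNAs of at least 1 RPM in 3 libraries, with Benjamini-Hochberg adjustment and a threshold of 0.05, and it was tested on simulated data. On the tags, edgeR 4.0.16 called 2 miRNAs; DESeq2 1.42.0 and limma-voom were also run. Ratios and rows below the filter were compared by exact permutation. Hairpins were folded with RNAfold 2.7.2. Python 3.11.15, pandas 2.3.3 and scipy 1.17.1 were used. Groups came from the titles.

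Members and lists were chosen with earlier results of these data known. All members are named. So are the miRNAs most like miR-451a (5) and miR-486a-5p (3), the 2 most abundant of each list, and list members whose groups did not overlap. Replicates differed by more than sampling noise (chi-square per degree of freedom 39.1 to 139.4), so none was counted as a repeat. Alternatives covered scaling, pseudocount, filter, tool, identical rows, a block for the replicate number and the removal of each library in turn.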

Additional observations from a re-analysis of the deposited data

How the results depend on the processing

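None of the members above the filter passed the threshold under any of 18 alternatives, and miR-451a stayed higher in GDE in all of them, with log2 differences of 0.69 to 1.35. Leaving out each library in turn gave 0.69 to 1.35 for miR-451a, 0.20 to 0.94 for miR-486a-3p, 0.18 to 0.46 for miR-144-3p and 0.70 to 1.29 for the log2 ratio of miR-451a over miR-486a-5p. For miR-486a-5p, and so for miR-486b-5p, it gave -0.048 to 0.11, and the sign turned without GDE replicate 2 (-0.048) and without Control replicate 3 (-0.0077); the cause was not tested. Over all tested miRNAs the count past the threshold was 2, and it became 7 with DESeq2, 1 with limma-voom and 1 with a mean of at least 10 RPM, a filter that leaves 333 miRNAs and removes miR-486a-3p. Leaving out each library in turn gave 2 to 3, with 3 without GDE replicate 1 and 3 without Control replicate 2. Replicate numbers are shared between the groups, but the deviations of same-numbered libraries had correlations of -0.03, -0.12 and -0.03. No library was closest to its own number, so the values gave no ground for pairing in the main fit. Whether same-numbered libraries were handled together was not tested. With the number as a replicate block the difference of miR-451a was again 1.00 (limma, adjusted p = 0.385), and 2 miRNAs were called. The tools that need whole tags, the identical-row setting and the stricter filter gave no value for the miR-144 arms, which are below the filter. At 5 to 17 tags per library, depth limits miR-144-3p, whose difference was 0.053 with a pseudocount of 10 and 0.60 with 0.1.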

Other observations

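miRNAs of vessels and of the choroid plexus, other tissues that a hippocampal preparation can hold, were given in fixed lists. Of 8 tested endothelial and mural miRNAs 6 had a positive fold, with a median of 0.19, and none passed in limma at an adjusted p of 0.05 (1 at an unadjusted p under 0.05, beside 8.63% of all tested miRNAs). miR-126a-5p, of endothelial cells, was at 18.4 ± 2.06 (GDE) and 13.8 ± 2.24 RPM (Control), and miR-145a-5p, of smooth muscle, at 4.84 ± 0.606 and 2.77 ± 0.418 RPM, in both cases with no overlap, as for 4.62% of all tested miRNAs with GDE higher. Their most abundant members overlapped, with miR-126a-3p at 333.8 ± 103.0 and 271.8 ± 55.0 RPM and miR-143-3p at 73.7 ± 13.7 and 70.6 ± 9.91 RPM. Of 7 tested choroid plexus and ependymal miRNAs 3 had a positive and 4 a negative fold. The positive ones were miR-204-5p, miR-211-5p and miR-449a-5p, and the negative ones were all arms of miR-34b and miR-34c. miR-204-5p was at 682.0 ± 294.5 (GDE) and 333.0 ± 182.3 RPM (Control), with overlapping groups. miR-204-5p, miR-449a-5p and this split by sign were named after the values were seen. miR-211-5p was at 5.24 ± 3.54 (GDE) and 1.51 ± 0.66 RPM (Control) without overlap. miR-34b-3p was lower without overlap, at 647.2 ± 22.6 and 903.3 ± 214.1 RPM. Its GDE replicate 2 (672.9 RPM, 7950 tags) nearly met Control replicate 3 (674.6 RPM, 7927 tags). miR-34c-3p was also lower without overlap (10.0% of all tested miRNAs lay without overlap with GDE lower), and miR-34c-5p overlapped, at 636.1 ± 118.2 and 769.1 ± 231.8 RPM. None of these passed in limma (lowest adjusted p = 0.551; 4 choroid plexus and ependymal miRNAs at an unadjusted p under 0.05), and edgeR, DESeq2 and limma-voom called 0 in either list.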
